A study of Mus musculus with 12 samples.

Results

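Id1, Id2, Id3, Id4, Hes1, Hes5, Hey1 and Hey2, 8 genes that encode inhibitors of cell differentiation, were followed in the cortex of mice lacking 1 of 2 DNA methyltransferases in the oligodendrocyte lineage. They were taken by gene symbol alone, a rule that uses no measured value, though earlier results of these data were known when they were chosen. The FPKM table (fragments mapped to a transcript, scaled by its length and by the size of the library) held 23354 symbols, and each of the 8 had 1 row. All 8 were among the 14075 symbols whose mean reached 0.5 FPKM over the 12 libraries, the minimum for testing.

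The genes form the families Id and Hes/Hey. Id proteins have a helix-loop-helix domain but no basic region, so they bind E proteins and keep them from pairing with basic helix-loop-helix (bHLH) activators such as Olig1 and Olig2. Hes and Hey proteins do bind DNA, recruit Groucho-type corepressors and repress bHLH genes. Id genes are classic targets of BMP signaling through Smad proteins, and Hes1, Hes5, Hey1 and Hey2 are classic targets of Notch signaling through RBPJ. In the oligodendrocyte lineage, Id2, Id4, Hes1 and Hes5 are known as brakes on the step from progenitor to myelinating cell, while in the rest of the cortex the same genes are used by astrocytes, neurons, vessels and ependyma.

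RNA was measured in cortices at postnatal day 16 from 4 groups of 3 mice on a C57BL/6 background. Dnmt1 CKO (conditional knockout) mice were Olig1cre/+;Dnmt1flox/flox and Dnmt3a CKO mice were Olig1cre/+;Dnmt3aflox/flox. The Dnmt1 control mice were Olig1+/+;Dnmt1flox/flox and the Dnmt3a control mice Olig1+/+;Dnmt3aflox/flox, so that every mouse carried the floxed alleles and the controls lacked only cre. Dnmt1 maintains CpG methylation after DNA replication and Dnmt3a adds it de novo. Cre was expressed from the Olig1 locus, which limits recombination to cells that have used that locus and their descendants and leaves every CKO mouse with a single intact Olig1 allele. The cortex was not sorted, so cells without recombination were measured as well, and fewer cells of a type cannot be told apart from less RNA per cell.

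The genes lie on 7 chromosomes of GRCm38 (mm10): Id1 at chr2:152736251-152737410 (plus strand), Id2 at chr12:25093799-25097140 (minus), Id3 at chr4:136143497-136145755 (plus), Id4 at chr13:48261228-48266026 (plus), Hes1 at chr16:30064384-30067796 (plus), Hes5 at chr4:154960923-154962371 (plus), Hey1 at chr3:8663359-8667256 (minus) and Hey2 at chr10:30832359-30842801 (minus). RefSeq promoter windows were held for 5 of the 8 genes (Id2, Id3, Id4, Hes5 and Hey2). The enzymes deleted here act on CpG sites, and RBPJ is the DNA-binding partner of Notch. The bases before the RefSeq start, cut where an exon is annotated, are therefore shown where enough were left, for Id4, Hes5 and Hey2. The Id2 window had 89 bases outside exons and the Id3 window 0, so neither is shown. Id4 and Hes5 had the widest spread between replicates. Hey2 was the gene whose CKO and control values separated in the Dnmt3a line. The windows are chr13:48260866-48261115 (plus strand, 250 bases) for Id4, chr4:154960673-154960922 (plus strand, 250 bases) for Hes5 and chr10:30842802-30843033 (minus strand, 232 bases) for Hey2, each written 5′ to 3′ toward the gene, with the RBPJ core TGGGAA in capitals on either strand (TTCCCA where it lies on the other one).
Id4: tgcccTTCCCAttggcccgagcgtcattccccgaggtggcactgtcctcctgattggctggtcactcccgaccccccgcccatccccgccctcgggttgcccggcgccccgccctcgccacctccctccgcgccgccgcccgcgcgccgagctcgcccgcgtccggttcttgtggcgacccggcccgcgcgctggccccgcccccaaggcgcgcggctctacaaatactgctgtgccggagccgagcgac
Hes5: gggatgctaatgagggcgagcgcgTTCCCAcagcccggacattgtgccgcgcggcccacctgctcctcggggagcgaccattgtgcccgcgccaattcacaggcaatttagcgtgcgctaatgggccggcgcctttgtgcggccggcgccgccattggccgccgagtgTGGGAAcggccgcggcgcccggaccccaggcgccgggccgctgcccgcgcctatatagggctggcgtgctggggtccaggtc
Hey2: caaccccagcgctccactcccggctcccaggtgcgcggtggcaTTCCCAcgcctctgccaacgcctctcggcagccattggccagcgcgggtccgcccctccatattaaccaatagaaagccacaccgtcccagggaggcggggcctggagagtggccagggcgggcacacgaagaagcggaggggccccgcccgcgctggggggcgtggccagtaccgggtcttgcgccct
The core occurred 2 times before Hes5, at positions -226 and -82 counted from the RefSeq start, once before Id4 at -245 and once before Hey2 at -207. The Hey2 stretch stops short of its RefSeq start, at an annotated exon. For Id4 the RefSeq start lies before the gene start given above. It was present in 21.6% of 32851 RefSeq promoter windows of 250 bases. The palindrome GGCGCC, a BMP-Smad binding motif, occurred 4 times before Hes5 and once before Id4 (9.59% of all windows had a match). It also occurred once in the 89 bases of the Id2 window outside exons, at -231. The N-box CACNAG, a Hes binding motif, occurred once before Id4 (36.7% of all windows). The E-box CANNTG occurred once before Hes5 and once before Hey2 (66.2% of all windows), and the Smad core GTCT once before Hey2 (82.9%). The E-box also occurred once in these bases of the Id2 window, at -196. No match overlapped another. The windows held 35 (Id4), 32 (Hes5) and 21 (Hey2) CpG sites, against a median of 6 over all windows, and their GC content was 75.6%, 71.6% and 71.1%, against a median of 52.4%. Methylation of these sites was not analysed here.

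Some properties of the libraries bear on all comparisons. Dnmt1 itself was 9.78 to 10.6 FPKM in Dnmt1 controls and 7.26 to 9.11 FPKM in Dnmt1 CKO libraries, without overlap. Dnmt3a was 13.6 to 15.4 FPKM in Dnmt3a CKO libraries and 31.1 FPKM (replicate 1) and 28.7 FPKM (replicate 3) in a pair of Dnmt3a controls. Its level was 16.9 FPKM in the library labelled Dnmt3a control replicate 2. This level lies near that of the CKO libraries, so Dnmt3a results are given with and without that library. Xist was 46.2 to 49.4 FPKM and the Y-linked gene Ddx3y at most 0.0365 FPKM in 3 libraries, the third of Dnmt1 control, Dnmt3a control and Dnmt3a CKO, and Ddx3y was 10.2 to 12.8 FPKM in the other 9, all 3 Dnmt1 CKO libraries among them (these genes were named after their values were seen). Sex was therefore unbalanced in the Dnmt1 line and balanced in the Dnmt3a line. Among these 9 libraries Xist was 1.69 to 1.85 FPKM in the Dnmt1 CKO libraries and 0.0306 to 0.0853 FPKM in the others. The libraries called low in Xist below were thus not alike in Xist. Steps between low values put the depth of the shallowest library at 0.857 of the deepest and gave an estimate of the fragments behind each value, since no read totals were used here.

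The 8 genes spanned a wide range of levels. On the FPKM scale, which is per transcript length, the means over 12 libraries were 71.3 for Id2, 24.1 for Id3, 17.8 for Hey1, 13.9 for Id4, 10.7 for Id1, 7.30 for Hes5, 4.15 for Hes1 and 1.79 for Hey2. No gene was at 0 in any library. Id2 stood apart, with 61.8 FPKM in its lowest library against 28.9 in the highest library of Id3. Neighbours in the order were ranked alike in 12 of 12 libraries, except Id4 above Id1 and Id1 above Hes5, which held in 11 of 12. The ranges of neighbours overlapped except for Id2 against Id3, Hes5 against Hes1 and Hes1 against Hey2.

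**Figure D1:**
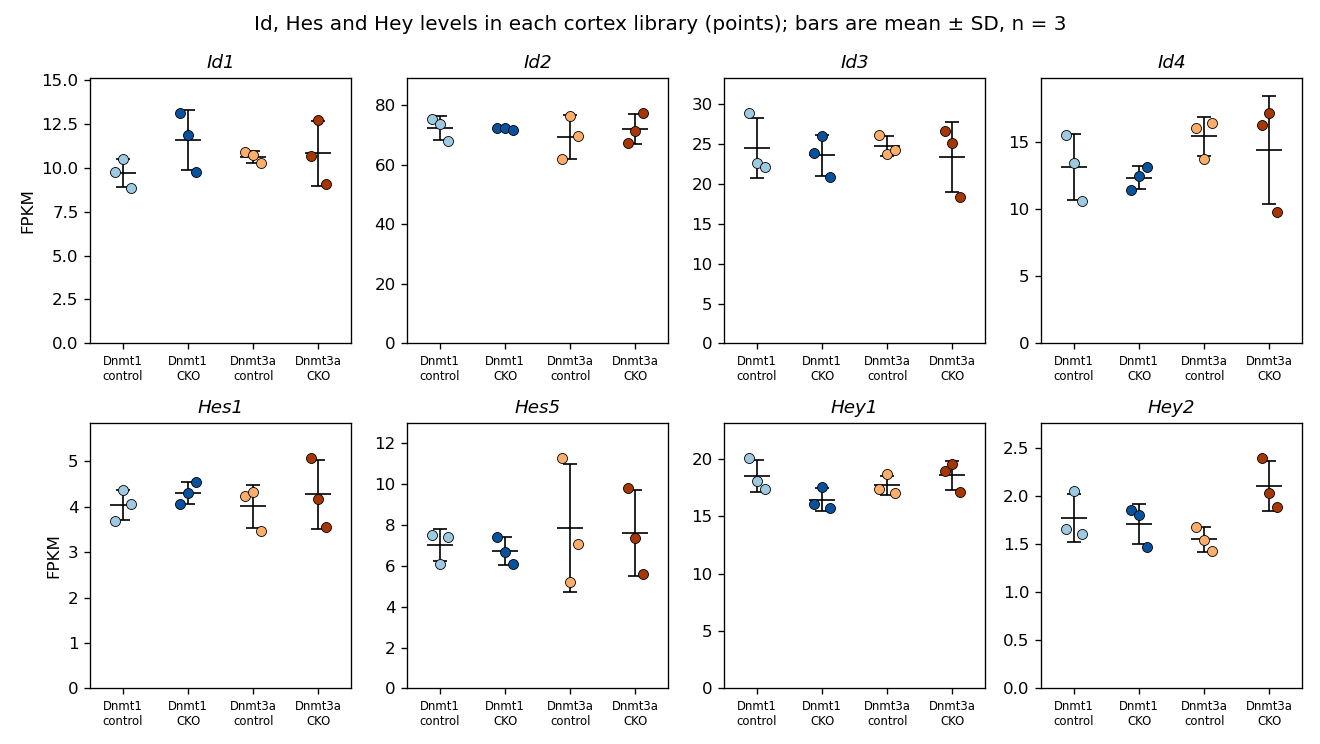
Level of each gene in FPKM (y axis, from 0, own scale per panel) in the 4 groups (x axis). Points are libraries, the long horizontal bar is the mean and the error bar the SD of 3 libraries; only Hey2 in the Dnmt3a line shows CKO points that all lie above the control points, while Hes5 ranges from 5.20 to 11.3 within the Dnmt3a controls alone.

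The first comparison asked whether the inhibitor genes change in a cortex that lacks Dnmt1 in the oligodendrocyte lineage. None of the 8 passed 10% FDR (limma on log2(FPKM + 0.1), Benjamini-Hochberg adjustment over all rows tested), where 443 of 14075 symbols, 3.15%, were called. Dnmt1, the deleted gene, was not called either (-0.27 ± 0.098 on the log2 scale, SE, limma adjusted p = 0.29). It passed only with all 12 libraries in 1 model (adjusted p = 0.097). The absence of a call thus does not show that a gene was unchanged. In the same libraries all 10 mature oligodendrocyte markers fell, with a median log2 fold change of -1.99, among them the myelin gene Mbp (-1.67 ± 0.10, SE). The limma adjusted p-values of the inhibitors ran from 0.34 for Hey1 to 0.98 for Id2. Their values overlapped between CKO and control in 8 of 8 cases, while 20.8% of all rows were separated. Of the 8 log2 fold changes 2 lay above 0 and the median was -0.05. Over all rows 41.1% lay above 0 and the median was -0.02. At an unadjusted p under 0.05 none of the 8 was counted, against 15% of all symbols.

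Among the Id genes, Id2 was the most tightly bounded. It measured 75.3, 73.6 and 67.9 FPKM in the Dnmt1 controls and 72.2, 72.3 and 71.4 FPKM in the CKO libraries. The groups lay on top of each other, and the CKO values all fell inside the control range. The CKO to control ratio was 0.997 with a 95% interval of 0.926 to 1.07.

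Id1, a BMP target used in vessels and in neural progenitors, gave the largest increase of the 8. It measured 9.73, 10.5 and 8.87 FPKM in controls and 13.1, 11.8 and 9.76 FPKM in CKO libraries. CKO replicates 1 and 2 lay above every control, and CKO replicate 3 did not. The log2 difference was 0.25 ± 0.12 (SE; limma adjusted p = 0.42; exact permutation test, two-sided, p = 0.2, n = 3 against 3, where 0.1 is the smallest p possible). It was 0.15 without CKO replicate 1 and 0.36 without CKO replicate 3. The summed FPKM of 6 choroid plexus and ependymal markers was 250 and 226 in the CKO libraries with the higher Id1. It was 86.3 in CKO replicate 3. In control replicates 1, 2 and 3 the sum was 276, 120 and 170. Control replicate 2, with the highest Id1 of the controls, thus had the lowest control sum. Most of the sum was Ttr, with a group mean of 182 FPKM in controls and 180 FPKM in CKO libraries. The list gene Foxj1 had group means of 1.88 and 2.08 FPKM. The part of choroid plexus and ependymal cells in the Id1 values was not tested.

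Id3 and Id4, which are close in sequence to Id1 and Id2 in the helix-loop-helix domain, showed wide replicate spread. Id3 measured 28.9, 22.6 and 22.2 FPKM in controls and 23.9, 26.0 and 20.9 FPKM in CKO libraries. Id4, which is linked to the timing of oligodendrocyte differentiation, measured 15.5, 13.4 and 10.6 FPKM in controls and 11.5, 12.5 and 13.2 FPKM in CKO libraries. The highest and the lowest Id4 value of the 6 libraries were both controls. Log2 differences were -0.05 ± 0.13 for Id3 and -0.08 ± 0.14 for Id4 (SE), and their 95% intervals reached from -0.37 to 0.26 and from -0.43 to 0.27.

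Among the Notch-responsive repressors, Hes1 and Hes5, both held high in neural progenitors, differed little. Hes1 measured 3.69, 4.36 and 4.05 FPKM in controls and 4.06, 4.30 and 4.54 FPKM in CKO libraries. Hes5 measured 7.54, 6.11 and 7.44 FPKM in controls and 7.42, 6.69 and 6.07 FPKM in CKO libraries. Their log2 differences were 0.09 ± 0.081 and -0.06 ± 0.11 (SE), each within the spread between libraries.

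Hey1, known from vessels and from neurons and glia, had the lowest adjusted p of the 8. It measured 20.1, 18.1 and 17.4 FPKM in controls and 16.1, 17.6 and 15.7 FPKM in CKO libraries. CKO replicates 1 and 3 lay below every control, whereas CKO replicate 2 lay just above the lowest control. The log2 difference was -0.17 ± 0.069 (SE; ratio 0.890, 95% interval 0.791 to 1.001; limma adjusted p = 0.34; exact permutation test, two-sided, p = 0.2, n = 3 against 3). In the same comparison 9 of 10 endothelial markers had log2 differences below 0 (median -0.21, none past 10% FDR), and their summed FPKM was 100 to 108 in controls and 88.4 to 96.6 in CKO libraries. Over all rows 41.1% lay above 0. Between the control groups, as Dnmt3a control minus Dnmt1 control, 8 of these 10 markers lay below 0 (median -0.12), with 39.8% of all rows above 0. The part of vessel cells in the Hey1 values was not tested. Hey2, the least abundant member and an arterial gene, measured 1.66, 2.06 and 1.60 FPKM in controls and 1.86, 1.80 and 1.48 FPKM in CKO libraries, a log2 difference of -0.05 ± 0.13 (SE). The groups overlapped, with the highest value in a control and the lowest in a CKO library. Without Dnmt1 control replicate 3, the only library of this line with high Xist, the differences were -0.21 for Hey1, 0.18 for Id1 and -0.22 for Id4 (limma adjusted p = 0.30, 0.57 and 0.34), and none of the 8 was called.

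**Figure D2:**
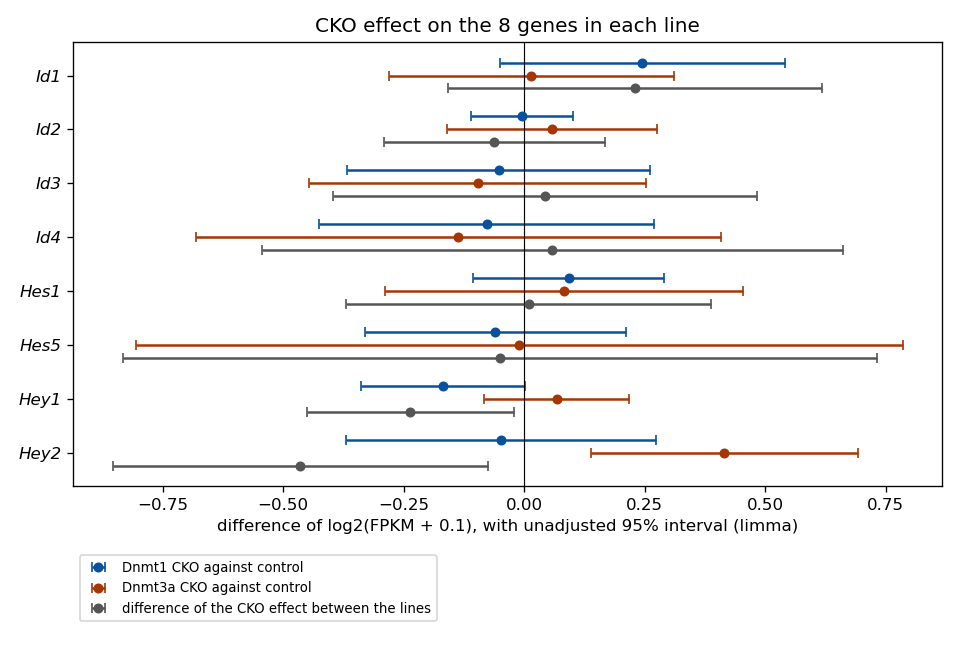
Differences of log2(FPKM + 0.1) for each gene (y axis) between CKO and control in the Dnmt1 line (blue) and the Dnmt3a line (brown), and the Dnmt1 effect minus the Dnmt3a effect (grey); points are limma estimates and bars unadjusted 95% intervals. Most intervals span 0, the widest belong to Hes5 in the Dnmt3a line (-0.81 to 0.79), and those of Hey2 (Dnmt3a line and difference) and Hey1 (difference) do not reach 0 before adjustment.

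The second comparison asked the same for loss of Dnmt3a, where none of the 10 mature oligodendrocyte markers was called and 9 lay above 0 (median log2 difference 0.06). Again none of the 8 inhibitors passed 10% FDR, a threshold that only 2 symbols (0.0142%) passed in this line. The deleted gene Dnmt3a did not pass it (-0.78 ± 0.23 on the log2 scale, SE, limma adjusted p = 0.66). Without the library labelled Dnmt3a control replicate 2 its difference was -1.05 ± 0.069 (SE, limma adjusted p = 0.12), still not called. At an unadjusted p under 0.05, 1 of 8 inhibitors (Hey2) and 1036 symbols (7.36%) were counted. Adjusted p-values of the inhibitors ran from 0.66 to 1.0 (limma). Of the 8 differences 5 lay above 0, with 53% of all rows.

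Hey2 was the single inhibitor whose groups did not overlap, as for 12.8% of all rows in this comparison (7.33% with CKO higher). It measured 1.68, 1.54 and 1.43 FPKM in Dnmt3a controls and 2.40, 2.03 and 1.89 FPKM in Dnmt3a CKO libraries. All 3 CKO libraries lay above all 3 controls, and 1 of the Dnmt1 controls, at 2.06 FPKM, reached the same levels. The ratio of CKO to control was 1.33, with an unadjusted 95% interval of 1.10 to 1.62. The log2 difference was 0.42 ± 0.11 (SE; limma adjusted p = 0.66; exact permutation test p = 0.1, the smallest possible with n = 3 against 3). Without the library labelled Dnmt3a control replicate 2 the difference was 0.41 ± 0.14 (SE; limma adjusted p = 0.72), and in the libraries with low Xist alone 0.43 ± 0.13 (SE; adjusted p = 0.52, 2 against 2 libraries, a selection added after the data were seen). Hey2 rested on an estimated 143 to 238 fragments per library. It did not pass the test in any of the settings tried.

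The related gene Hey1 measured 17.4, 18.7 and 17.0 FPKM in Dnmt3a controls and 19.0, 19.6 and 17.2 FPKM in CKO libraries. The groups overlapped, since CKO replicate 3 lay below 2 controls, and the log2 difference was 0.07 ± 0.062 (SE). Hes1 measured 4.23, 4.32 and 3.46 FPKM in controls and 5.07, 4.17 and 3.56 FPKM in CKO libraries, a log2 difference of 0.08 ± 0.15 (SE). Hes5 varied more within groups than between them. It measured 11.3, 5.20 and 7.07 FPKM in Dnmt3a controls and 9.81, 7.35 and 5.62 FPKM in CKO libraries. With a ratio of 0.993 and a 95% interval of 0.572 to 1.72, differences of this gene well beyond those seen in the Dnmt1 line could not have been told from 0. Without the library labelled Dnmt3a control replicate 2, which held its lowest value, the log2 difference of Hes5 was -0.27 ± 0.30 (SE; adjusted p = 0.87, limma).

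The Id genes overlapped throughout in the Dnmt3a line. Id2 measured 61.8, 76.3 and 69.6 FPKM in controls and 67.3, 71.1 and 77.3 FPKM in CKO libraries. Id1 measured 10.9, 10.7 and 10.2 FPKM in controls and 10.7, 12.7 and 9.05 FPKM in CKO libraries, with the narrowest spread of any Id1 group in the controls (10.6 ± 0.33 FPKM, SD, n = 3). The log2 differences of Id2 and Id1 were 0.06 ± 0.089 and 0.01 ± 0.12 (SE).

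For Id3 and Id4 the direction hung on a single library. Id3 measured 26.1, 23.7 and 24.3 FPKM in Dnmt3a controls and 26.7, 25.2 and 18.4 FPKM in CKO libraries. Id4 measured 16.1, 13.8 and 16.5 FPKM in controls and 16.3, 17.2 and 9.78 FPKM in CKO libraries. Dnmt3a CKO replicate 3 held the lowest value of all 12 libraries for both genes, and the highest value for Id2. The log2 differences were -0.10 ± 0.14 and -0.14 ± 0.22 (SE). Without that library they were 0.07 and 0.12, so neither sign was stable. Without the library labelled Dnmt3a control replicate 2, the differences of the Id genes were 0.02 (Id1), 0.13 (Id2), -0.13 (Id3) and -0.22 (Id4), and those of Hes1 and Hey1 0.14 and 0.11, with limma adjusted p from 0.78 to 0.99.

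The third comparison tested whether the CKO effect differed between the lines, as the Dnmt1 effect minus the Dnmt3a effect over all 12 libraries. It called 299 symbols (2.12%) and none of the 8 inhibitors, of which 4 lay above 0, with 41.2% of all rows. Before adjustment the intervals of 2 inhibitors did not reach 0, against 10.6% of all symbols with p under 0.05. For Hey2 the difference was -0.46 ± 0.18 on the log2 scale (SE; limma adjusted p = 0.36), from effects of -0.05 and 0.42. For Hey1 it was -0.24 ± 0.097 (SE; limma adjusted p = 0.41), from effects of -0.17 and 0.07. Id1 gave 0.23 ± 0.18 (SE; adjusted p = 0.71) and the other 5 lay between -0.06 and 0.06, with limma adjusted p from 0.89 to 0.99. Without the library labelled Dnmt3a control replicate 2 the values were -0.46 for Hey2, -0.27 for Hey1 and 0.22 for Id1, with adjusted p of 0.48, 0.38 and 0.79. In that fit Hes5 went from -0.05 to 0.21 and Hes1 from 0.01 to -0.05.

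The control groups of the lines, which carry different floxed alleles and no cre, gave no call for any of the 8 genes (0 of 14075 symbols called, 0% at 10% FDR by limma; 1149 symbols, 8.16%, at an unadjusted p under 0.05). The largest difference, Dnmt3a control minus Dnmt1 control, was that of Id4 (0.24 ± 0.19 on the log2 scale, SE; adjusted p = 0.80), from 13.2 ± 2.47 to 15.4 ± 1.44 FPKM (SD, n = 3). Without the library labelled Dnmt3a control replicate 2 it was 0.32 ± 0.22 (SE; limma adjusted p = 0.85), without Dnmt1 control replicate 1 it was 0.36, without Dnmt1 control replicate 3 it was 0.092, and in the libraries with low Xist it was 0.044. In the last 2 of these fits Hey2, at -0.24 and -0.19, differed more than Id4. Values of both control groups overlapped for 8 of 8 genes, with 12.6% of rows separated. Of the 8 differences 4 lay above 0, with 39.8% of all rows.

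What varied most in these genes was the single library. Pooled over the 4 groups, the coefficient of variation between replicates was 6.39% for Hey1, 6.87% for Id2, 11.8% for Hes1, 11.8% for Hey2, 12.1% for Id1, 13.6% for Id3, 17.8% for Id4 and 25.4% for Hes5. Counting error from the estimated fragments was smaller for every gene, from 1.37% for Id2 to 7.65% for Hey2. The replicate spread was 7.94 times the counting error for Id4 and 4.68 times for Hes5, but 1.54 times for Hey2 and 1.79 times for Hes1. Depth thus set a larger share of the error of Hey2 and Hes1 than of Id4 and Hes5.

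**Figure D3:**
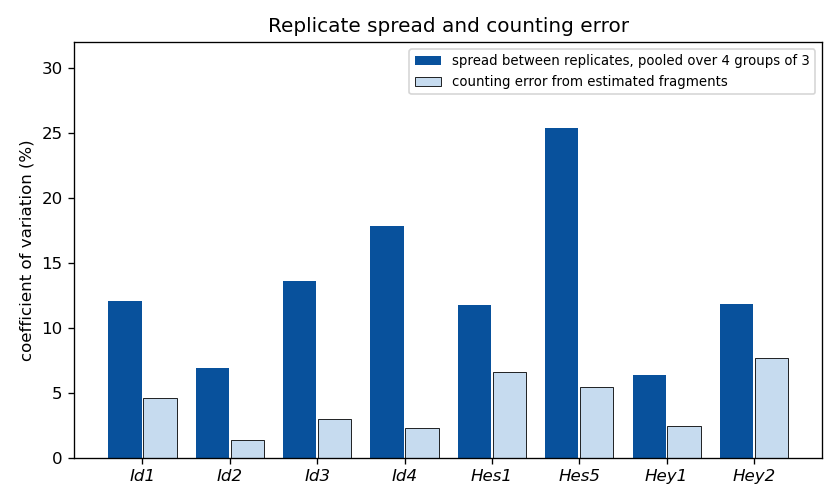
Coefficient of variation in percent (y axis, from 0) of each gene: dark bars, spread between replicates pooled over 4 groups of 3 libraries; light bars, counting error from the estimated fragments. Hes5 (25.4%) and Id4 (17.8%) have the tallest dark bars and counting error under 5.5%.

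Deviations of single libraries were shared by some of the genes. Dnmt3a CKO replicate 3 lay below the gene mean by 0.38 for Id3, 0.48 for Id4, 0.34 for Hes5, 0.23 for Id1 and 0.21 for Hes1 on the log2 scale, and above it by 0.12 for Id2. Its choroid plexus and ependymal marker sum was the lowest of the 12 libraries, at 5.30 FPKM, against up to 421 FPKM in Dnmt3a CKO replicate 2. Most of this sum was Ttr, with group means of 75.2 FPKM in Dnmt3a controls and 232.5 FPKM in Dnmt3a CKO libraries. Those of Foxj1 were 2.03 and 2.08 FPKM. Dnmt3a control replicate 3, with a sum of 8.77 FPKM, had Id4 at 16.5 FPKM, the second highest of 12. Dnmt3a control replicate 1 held the highest Hes5 and the lowest Id2 value, and Dnmt3a CKO replicate 1 the highest Hes1 and Hey2 values. The causes of these deviations were not tested.

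**Figure D4:**
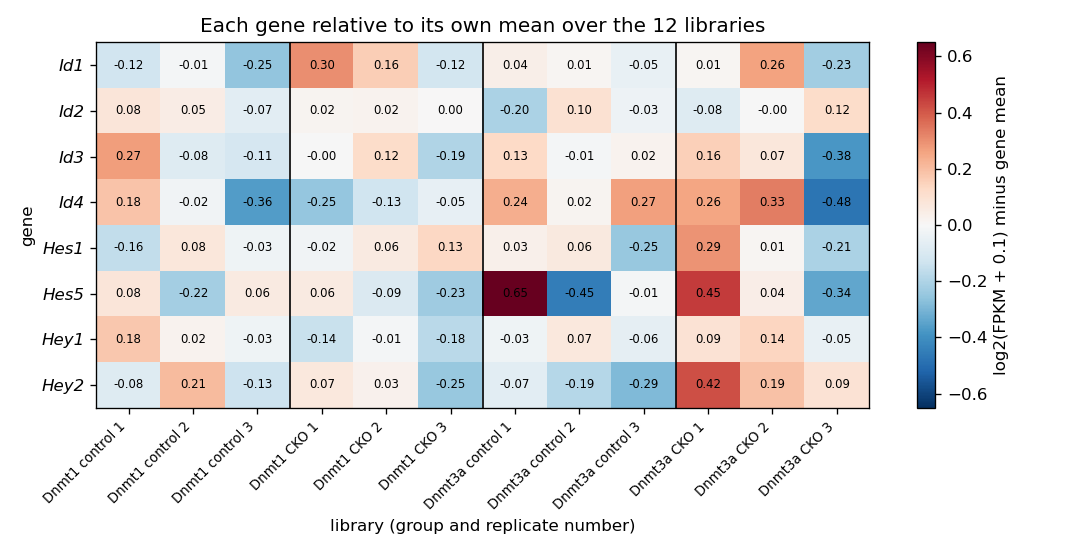
Log2(FPKM + 0.1) of each gene (rows) in each library (columns, in group order) minus the mean of that gene over the 12 libraries; red is above and blue below the mean, and the numbers are the differences. The deepest colours lie in the Dnmt3a line within groups, at 0.65 for Hes5 in control replicate 1 and -0.48 for Id4 in CKO replicate 3, rather than along group borders.

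Over the 12 libraries, which differ in group, sex and depth, the strongest relation among the 28 pairs of inhibitors was opposite, between Id2 and Hes5 (Pearson r = -0.86, Spearman rho = -0.71). The most alike pair by Pearson r was Id3 and Id4 (r = 0.72, rho = 0.64), and by Spearman rho Id3 and Hes5 (r = 0.59, rho = 0.71). Of all symbols tested, symbols among the 3 most like each gene over the 12 libraries by Pearson r were Foxj1, Gm12709 and 2310061J03Rik for Id1 (r = 0.89, 0.87 and 0.85), Arhgap10, Ppp6r1 and Dvl1 for Id2 (0.91, 0.90 and 0.88), Hsdl1, Ddx56 and Efnb2 for Id3 (0.92, 0.90 and 0.90) and Dpy19l4, Zfp608 and Smc3 for Id4 (0.94, 0.92 and 0.89). For the repressors they were Fbxl20, Fancm and Ncapd3 for Hes1 (0.86, 0.85 and 0.84), Lrrc2, Mfsd9 and Zfp108 for Hes5 (0.86, 0.85 and 0.85), Tssc4, Fyn and Sparc for Hey1 (0.94, 0.93 and 0.93) and Mpv17l2 and Klf13 for Hey2 (0.90 and 0.87). These are the highest of many values over few libraries and are given as a description. Foxj1, a factor of ciliated ependymal cells, belongs to the choroid plexus and ependymal list.

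The genes that act on the inhibitors, or that the inhibitors act on, were examined as 10 lists of 84 genes, of which 77 were tested. In the Dnmt1 line 4 of 77 passed 10% FDR (1 higher, 3 lower), in the Dnmt3a line 0 of 77, and in the difference between the lines 2 of 77, both lower in the Dnmt1 line. Over all symbols 3.15%, 0.0142% and 2.12% passed in these comparisons, so the counts of the lists lay near the background.

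On the Notch side, none of 31 genes passed in either line. Among the 7 ligands the best expressed were Dner (47.1 FPKM) and Jag2 (6.82 FPKM), and the log2 differences of the ligands ran from -0.25 to 0.13 in the Dnmt1 line (median -0.08) and from -0.38 to 0.19 in the Dnmt3a line (median 0.01). The 4 receptors were low, from 3.75 FPKM for Notch1 to 1.26 FPKM for Notch4, with medians of -0.04 and 0.06. The 20 genes of receptor processing and the transcription complex, such as the protease gene Adam10 (20.6 FPKM) and RBPJ itself (Rbpj, 6.13 FPKM), had medians of -0.01 and 0.02, with Rbpj at -0.05 ± 0.049 and 0.09 ± 0.076 (SE). Among further Hes, Hey and Bhlhe repressors 4 of 8 were tested and none passed. Heyl, a close relative of Hey1 and Hey2, measured -0.49 ± 0.15 in the Dnmt1 line (SE; limma adjusted p = 0.22) and 0.02 ± 0.20 in the Dnmt3a line.

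The BMP ligands held a change in each direction. Bmp4, a ligand that induces Id genes and opposes oligodendrocyte differentiation, measured 2.88, 2.79 and 2.65 FPKM in Dnmt1 controls and 2.02, 1.97 and 2.01 FPKM in Dnmt1 CKO libraries. The CKO values were nearly identical to each other and all below the controls, a log2 difference of -0.45 ± 0.061 (SE; limma adjusted p = 0.026). In the Dnmt3a line Bmp4 measured 2.47, 2.31 and 2.97 FPKM in controls and 3.58, 3.52 and 3.28 FPKM in CKO libraries, with the CKO values on the other side of the controls (0.42 ± 0.11, SE; adjusted p = 0.66). The effects differed between the lines by -0.87 (limma adjusted p = 0.0029), and by -0.80 without the library labelled Dnmt3a control replicate 2 (adjusted p = 0.0069). The call in the Dnmt1 line was lost without Dnmt1 control replicate 2 or any 1 of the 3 CKO libraries, with adjusted p up to 0.18 over all settings, while the difference between the lines was called in each of its settings, with adjusted p up to 0.015.

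Bmp6, another BMP ligand, rose from 2.41 ± 0.14 to 3.17 ± 0.13 FPKM in the Dnmt1 line (SD, n = 3; log2 difference 0.38 ± 0.070, SE; limma adjusted p = 0.070), a call that was lost whichever library was left out (adjusted p up to 0.23). In the Dnmt3a line it measured 2.10 ± 0.36 and 2.15 ± 0.39 FPKM. The 10 BMP receptors and Smads had medians of -0.06 and 0.03 in the Dnmt1 and Dnmt3a lines and the 9 tested BMP and Smad inhibitors 0.03 and 0.08, with none called. The inhibitory Smad gene Smad7 measured -0.44 ± 0.10 in the Dnmt1 line (SE; adjusted p = 0.13) and -0.08 ± 0.061 in the Dnmt3a line (limma).

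Of the bHLH partners, the 3 E protein genes, which Id proteins bind directly, stayed within -0.11 to 0.02 in both lines and none passed. Tcf4, the best expressed of them at 44.1 FPKM, measured 0.00190 ± 0.044 in the Dnmt1 line and -0.09 ± 0.040 in the Dnmt3a line (SE). Of 6 tested activators, Olig1 and Olig2, which drive oligodendrocyte fate, fell in the Dnmt1 line. Olig1, whose locus carries cre, went from 46.5 ± 4.46 to 20.3 ± 1.81 FPKM (SD, n = 3; log2 difference -1.19 ± 0.093, SE; limma adjusted p = 0.0043) in the Dnmt1 line and from 47.4 ± 2.98 to 33.9 ± 4.33 FPKM in the Dnmt3a line (-0.49 ± 0.097, SE; adjusted p = 0.66). The loss of an Olig1 allele to cre is common to both CKO groups, and its share in these values was not tested. The difference between the lines was -0.70 (limma adjusted p = 0.032), and -0.74 without the library labelled Dnmt3a control replicate 2 (limma adjusted p = 0.059). It was not called without Dnmt3a control replicate 3 (adjusted p = 0.10), with no filter on low values or in the libraries with low Xist (adjusted p = 0.11 in each). Olig2 went from 10.3 ± 0.52 to 7.11 ± 0.87 FPKM in the Dnmt1 line (SD, n = 3; -0.54 ± 0.096, SE; adjusted p = 0.064, limma), a call lost without any 1 of 5 of the 6 libraries (not CKO replicate 2), and measured 10.2 ± 1.11 and 10.2 ± 1.32 FPKM in the Dnmt3a line. The 5 tested Groucho-type corepressor genes, led by Aes at 149 FPKM, had medians of -0.02 and -0.07 and none passed.

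**Figure D5:**
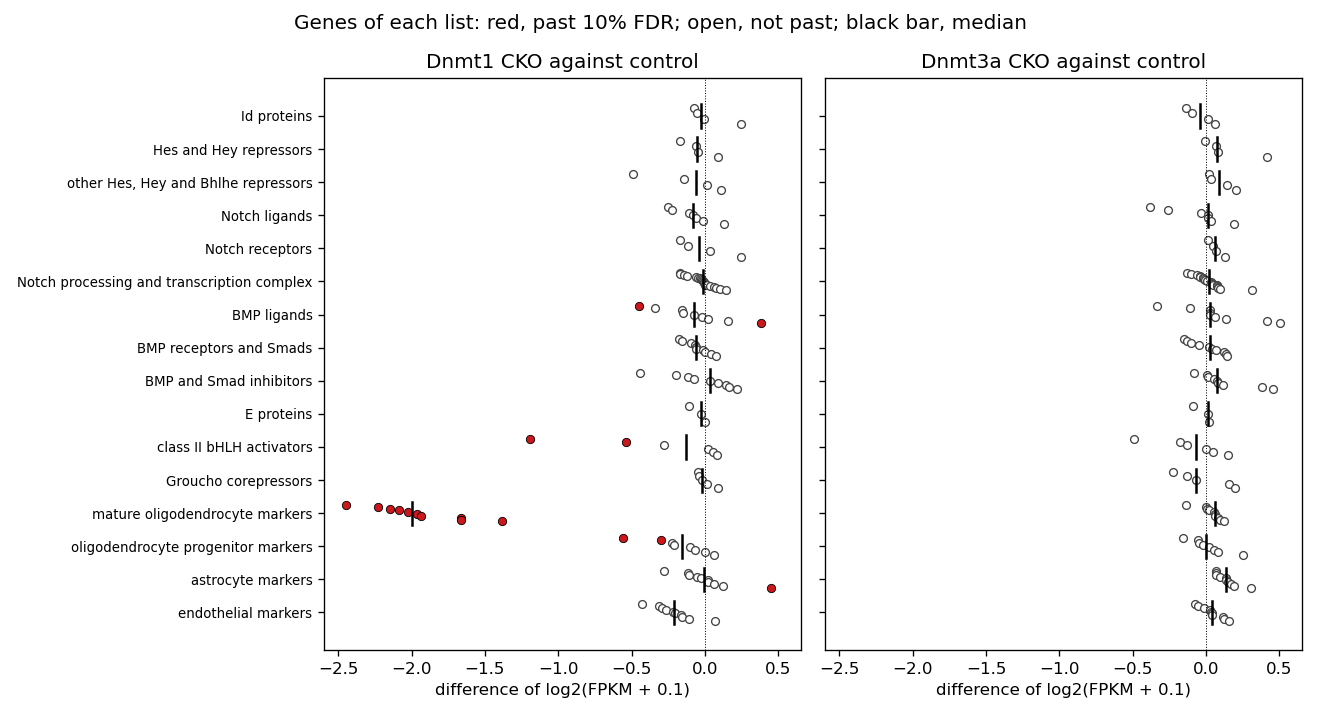
Differences of log2(FPKM + 0.1) between CKO and control (x axis) for the genes of 16 lists (y axis) in the Dnmt1 line (left) and the Dnmt3a line (right). Each circle is a gene, red if past 10% FDR, and the black bar is the list median; in the left panel the inhibitor lists sit near 0 while the mature oligodendrocyte list has a median of -1.99 and all 10 circles red, and the right panel has no red circle.

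Markers of the cells that could carry these transcripts were measured in the same libraries. The summed FPKM of the 10 mature oligodendrocyte markers was 1948 to 2267 in Dnmt1 controls and 575 to 670 in Dnmt1 CKO libraries, against 2478 to 2959 and 2706 to 3086 in the Dnmt3a line. Of 8 progenitor markers, Gpr17 (-0.56 ± 0.045 on the log2 scale, SE) and Pdgfra (-0.30 ± 0.048) fell in the Dnmt1 line, the latter not when 1 of 4 of its libraries was left out (Dnmt1 control replicate 2 or any CKO library; adjusted p up to 0.19). In the Dnmt1 line 7 of the 8 progenitor markers lay below 0. Their sums were 113 to 125 in controls and 95.2 to 101 in CKO libraries, without overlap. Over all rows of the Dnmt1 line 41.1% lay above 0, and 20.8% did not overlap between the groups. Of 10 astrocyte markers, Gfap rose (0.45 ± 0.042, SE) and the others were not called. The astrocyte sums were 922 to 955 in controls and 915 to 934 in CKO libraries. In the Dnmt3a line the astrocyte sums were 928 to 963 in controls and 1005 to 1073 in CKO libraries, without overlap and with 10 of 10 differences above 0 and none called. The control sum of 963 was that of the library labelled Dnmt3a control replicate 2. Over all rows of this line 53% lay above 0, and 12.8% did not overlap between the groups. Of 10 endothelial markers 7 lay above 0 (median 0.04), with none called. Whether astrocyte or vessel RNA had a part in the Hey2 values was not tested. Mural markers fell for Rgs5 and Acta2 of 8 genes in the Dnmt1 line, with sums of 47.6 to 51.7 and 39.0 to 42.1 FPKM; Rgs5 was not called without Dnmt1 CKO replicate 1, nor Acta2 without any 1 of the 6 libraries.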

How the data were processed

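RNA was extracted from whole cortex of 12 mice, and polyA RNA was sequenced on a HiSeq instrument after TruSeq library preparation. The authors aligned reads to mm10 with TopHat and deposited FPKM values per gene symbol from Cufflinks; tool versions are not given in the sources used here. Replicates are separate mice. Of 23850 rows, 302 exact duplicates were removed. Rows averaging 0.5 FPKM or more (14115 rows, 14075 symbols) were fitted as log2(FPKM + 0.1) with limma 3.58.1 in R 4.3.3 (lmFit, eBayes with trend, Benjamini-Hochberg adjustment over all rows tested, 10% FDR), each line on its 6 libraries and the difference between the lines on all 12. A fold change on this scale understates changes of low genes. The procedure was tested on simulated data. Single genes were also compared by two-sided exact permutation tests. Depth was estimated from steps between low values (63.3% to 72.6% within 0.1 of a whole fragment), so counting errors are approximate and cover counting only.

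The members and lists were chosen with earlier results of these data known. Named are the 8 genes, list genes past 10% FDR or otherwise up to 4 per list with the highest mean, the targeted genes with Olig1, and the 3 symbols most like each member; of these, the text gives examples, and some genes the rule names are not reported here. Rbpj, Xist and Ddx3y, outside this rule, were chosen after their values were seen. The summed values are of all genes of a list. Alternatives were other pseudocounts, minimums, scalings, eBayes settings, a 5% FDR, a replicate block, all 12 libraries in 1 model, values summed per symbol and leaving out each library; the libraries with Xist under 10 FPKM alone were added after seeing the data. Positions and lengths are from GENCODE M21 (GRCm38), promoter windows from RefSeq (GRCm38.p6). Python 3.11.15 with pandas 2.3.3, numpy 2.4.6 and matplotlib 3.10.9 was used for tables and plots.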

Additional observations from a re-analysis of the deposited data

Results flagged for a closer look

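None of the 8 inhibitor genes had a CKO effect that differed between the lines past 10% FDR. Among the genes of their pathways and the markers named beside them, 14 are given here that did, as the log2 effect in the Dnmt1 line minus that in the Dnmt3a line (limma interaction over 12 libraries). The BMP ligand gene Bmp4 differed by -0.87 and the bHLH gene Olig1 by -0.70. Of the mature oligodendrocyte markers, those given here differed by -1.79 (Mbp), -2.02 (Mag), -2.08 (Mog), -2.24 (Mobp), -1.38 (Cnp), -2.15 (Mal), -2.53 (Opalin), -2.01 (Ermn) and -1.76 (Cldn11). Gpr17, of the progenitor markers, differed by -0.64, the endothelial marker Esam by -0.32 and the astrocyte glutamate transporter gene Slc1a2 by -0.21. The Slc1a2 call was lost in 21 of its 26 fits, the main one included in the count. Among these were all fits without 1 library, except that without Dnmt1 control replicate 3. The Esam call was lost without Dnmt1 CKO replicate 1 or 3 or Dnmt3a CKO replicate 2, and both were lost in the libraries with low Xist.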

How the results depend on the processing

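No inhibitor gene was called in any comparison under any of the 704 fits of a member, whose lowest limma adjusted p was 0.21 (Hey1, difference between the lines, libraries with Xist under 10 FPKM only). With 3 libraries a group and replicate spread of up to 25.4%, small differences of Hes5 and Id4 could not be resolved, and 143 to 238 estimated fragments limited Hey2. Of 32 gene and comparison values, 20 changed sign when 1 library was left out. The other 12 ranged from 0.15 to 0.36 (Id1), 0.031 to 0.15 (Hes1) and -0.22 to -0.11 (Hey1) in the Dnmt1 line, 0.029 to 0.12 (Hey1) and 0.32 to 0.49 (Hey2) in the Dnmt3a line, 0.11 to 0.35 (Id1), -0.29 to -0.18 (Hey1) and -0.53 to -0.36 (Hey2) between the lines, and 0.069 to 0.19 (Id1), 0.092 to 0.36 (Id4), -0.11 to -0.00336 (Hey1) and -0.24 to -0.074 (Hey2) between the controls. The ranges of those that changed sign, leaving out 1 library at a time, were -0.049 to 0.026 (Id2), -0.13 to 0.070 (Id3), -0.22 to 0.048 (Id4), -0.16 to 0.011 (Hes5) and -0.11 to 0.057 (Hey2) in the Dnmt1 line. In the Dnmt3a line they were -0.11 to 0.13 (Id1), -0.022 to 0.13 (Id2), -0.20 to 0.069 (Id3), -0.28 to 0.12 (Id4), -0.046 to 0.20 (Hes1) and -0.27 to 0.28 (Hes5). Between the lines they were -0.13 to 0.017 (Id2), -0.12 to 0.17 (Id3), -0.20 to 0.21 (Id4), -0.11 to 0.14 (Hes1) and -0.34 to 0.21 (Hes5), and between the controls -0.14 to 0.013 (Id2), -0.049 to 0.14 (Id3), -0.075 to 0.085 (Hes1) and -0.20 to 0.35 (Hes5).

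Symbols called in the Dnmt1 line numbered 443, and 262 at 5% FDR. Leaving out 1 library gave 198 to 340, with fewest without Dnmt1 CKO replicate 1 and 205, 265 and 215 without Dnmt1 control replicate 2, CKO replicate 2 and CKO replicate 3. In the Dnmt3a line 2 were called, 1 with a pseudocount of 1, a minimum mean of 1 FPKM, a 5% FDR or all 12 libraries in 1 model, 20 with no filter, 8 with the libraries of low Xist, and 2 to 5 without 1 library. The difference between the lines called 299, and 205 to 326 without 1 library. Between the controls 0 were called, 3 with no filter and 3 with the libraries of low Xist, and 0 to 1 without 1 library.

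Rescaling the libraries by median ratio turned Id2 in the Dnmt1 line to 0.018 and Hes1 between the controls to 0.011 (log2). With the libraries of low Xist alone, Id3, Id4 and Hes5 in the Dnmt3a line turned to 0.058, 0.17 and 0.15, Id3, Id4 and Hes1 between the lines to -0.18, -0.39 and -0.00697, and Id3 and Hes1 between the controls to -0.038 and 0.090. The cause was not tested.

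The replicate numbers did not pair the libraries: deviations of same-numbered libraries correlated at -0.06, 0.04 and -0.03 in the Dnmt1 line and at 0.02, -0.08 and -0.00415 in the Dnmt3a line, and a library did not always correlate best with its own number. With the replicate block 161 symbols were called in the Dnmt1 line, 1 in the Dnmt3a line and 299 between the lines, none of them an inhibitor. Bmp4, Bmp6, Pdgfra, Rgs5 and Acta2 were then not called in the Dnmt1 line.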
